A study of Homo sapiens with 5 samples.

Results

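Cell division in human fibroblasts was described through 52 genes of mitosis, whose products drive entry into mitosis, build the spindle and the kinetochore, separate the sister chromatids and cut the cell apart. They were taken by symbol from a list of mitotic spindle, kinetochore, cytokinesis and G2/M genes, chosen with earlier results of these data known. Shares of members set beside those of all genes tested are therefore descriptions. All 52 had a row among the 18568 gene rows analysed, and all 52 passed the filter on low values, among 6317 genes tested. The rows used here do not cover every gene of the experiment: the members' symbols all begin with letters from A to H, and other mitosis genes, such as PLK1 and KIF11, were not analysed here.

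The cells were IMR90, which are normal human lung fibroblasts. Every library came from cells infected with a retrovirus expressing RASV12, a constantly active RAS protein, and selected with puromycin. An antagomir, which is a chemically modified oligonucleotide complementary to a microRNA that stops it from acting, was transfected 24 hours after seeding on day 10 after infection. The control antagomir was given to 2 libraries, marked B and C, and an antagomir against miR-146a to 3, marked A, B and C. Cells without RASV12 were not among these libraries, so each comparison is between antagomirs in RASV12 cells, and the labels do not say that the libraries came from separate cultures. The p-values therefore describe spread among the 5 libraries alone, part or all of which could be technical.

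Oncogenic RAS drives normal fibroblasts into senescence, a lasting arrest of division in which genes of mitosis are known to be turned down. In dividing cells these genes peak together in G2 and mitosis, and many carry in their promoters a cell cycle genes homology region (CHR), bound by the DREAM repressor in arrested cells and by the MuvB, B-MYB and FOXM1 activators in G2, often with CCAAT boxes bound by NF-Y. miR-146a is a microRNA induced by NF-κB that dampens inflammatory signalling and is abundant in senescent fibroblasts. The mature strand whose action the antagomir blocks is printed here because seed matches to it are counted below, with its seed (bases 2 to 8) in capitals (RefSeq, GRCh38.p14, chr5:160485372-160485393, plus strand).
miR-146a-5p: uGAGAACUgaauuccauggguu

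Reads in the rows used ranged from 8430859 to 9283950 per library, which is part of each library and not its full depth. Both libraries marked C differed most from the rest: the first principal component of all tested genes, with 53.4% of the variance, separated them, and the labels do not say what the letters mark. The results are therefore given for the A and B libraries against control B and for C against C, besides the comparison of all 5. The labelled cell type was met by its markers: 11 of 14 fibroblast markers had a row, and all 11 reached 10 normalized reads, with summed levels of 250600 to 367430 in controls and 271030 to 347856 with anti-miR-146a. The sums were at most 107 for 8 epithelial markers, 229 for 6 endothelial markers and 74.8 for 11 blood cell markers in any library. These markers were low but not all absent: 3 epithelial, 4 endothelial and 5 blood cell markers reached 10 normalized reads in some library. The epithelial marker CLDN4 ranged from 43.5 to 70.3 and the endothelial marker EGFL7 from 81.2 to 118.5. The epithelial cadherin CDH1 was at 0 in both controls and at 0.944 in anti-miR-146a A. The T cell and red cell genes CD3E and HBA1 were at 0 in all 5 libraries. Because the RNA was taken from whole cultures, fewer cells in mitosis and less RNA per dividing cell cannot be told apart.

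Most of the 52 genes were lower with anti-miR-146a in both sets of libraries, and the median drop was larger in A and B than in C. A normalized read is 1 read scaled by the size factor of its library, and differences are in log2(normalized reads + 1). Values are given in the order of control B and control C, then of the anti-miR-146a libraries (called treated) A, B and C. Between the A and B libraries and control B, 44 members were lower and 8 higher (median log2 difference −0.44). Between the C libraries, 38 were lower and 14 higher, with a median of −0.24. Over all 6317 genes tested the same medians were 0.01 and 0.01.

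In the comparison of all 5 libraries with the antagomir as the only term, no member passed in limma with Benjamini-Hochberg adjustment over all genes (adjusted p from 0.341 to 0.986), and 0% of all genes tested did. Of the members, 42 were lower and 10 higher. Their median log2 difference was −0.25 against 0.005 over all genes and −0.01 over 5168 protein-coding genes. Without control B the member median was −0.01, and without control C −0.55. At an unadjusted p under 0.05 there were 10 members, all lower, where 4.62% of all genes tested were lower at that level. edgeR's quasi-likelihood test on the recovered reads passed 0 members, with 11 at an unadjusted p under 0.05. DESeq2 passed 1 member, CENPF (adjusted p 0.0166), and 0.652% of the 6441 genes to which it gave an adjusted p. The authors' deposited table gives an adjusted p under 0.05 to 1 of the 52, CKS2, with a fold change of 0.649 (adjusted p 0.027), and to 2.57% of the rows used here that carry one.

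With a term for the C libraries beside the antagomir, which compares the antagomirs within each set, 17 members passed as lower and 2 as higher in limma, and 33 did not pass. The background in that model was 6.79% of all genes lower and 8.64% higher, against 32.7% of members lower. Those lower were ANLN, ARHGAP11A, ASPM, CCNA2, CCNB1, CDK1, CENPE, CENPF, CENPW, CKAP2L, CKS2, DEPDC1, DIAPH3, DLGAP5, ECT2, HJURP and HMMR, and those higher were CDC25B and ESPL1. The member median was −0.34 and that of all genes 0.008. edgeR with the same term called 25 members, where 15.1% of all genes were called. It shared 18 with limma, did not call ESPL1, and called as lower 7 members that limma did not: BIRC5, BUB1B, CCNB2, CDC25C, CDCA2, CDCA8 and CENPK. The limma calls moved with the libraries used, for members and all genes alike. The fit to all 5 libraries has 2 residual degrees of freedom. Leaving out control B, control C or anti-miR-146a C leaves anti-miR-146a A against B as the only spread, so the numbers passing there are uncertain. Without anti-miR-146a C the antagomir comparison is that of A and B with control B, as when both C libraries are dropped. Without control B, which leaves the C libraries to carry the comparison, 5 members passed, namely CCNA2, CENPF, CKS2, DLGAP5 and HMMR, and 5.24% of all genes. Without control C 28 members and 24.7% of all genes passed, and without anti-miR-146a C 29 members and 24.6%. Every one of the 19 kept its sign in each of these fits. With no filter on low values none passed, among members or over all 15396 genes.

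Counted by library, 19 members had every anti-miR-146a library below both controls, where 13.5% of all genes tested did. All of them were above both controls for 1 member, CDC27, and for 1042 of the 6317 genes tested. Libraries A and B both lay below control B, and C below control C, for 36 members, or 69.2%, where 27.4% of all genes did. Higher in both sets were 4 members, CDC25B, CDC27, CENPN and ESPL1, and 1960 of the 6317 genes tested.

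**Figure D1:**
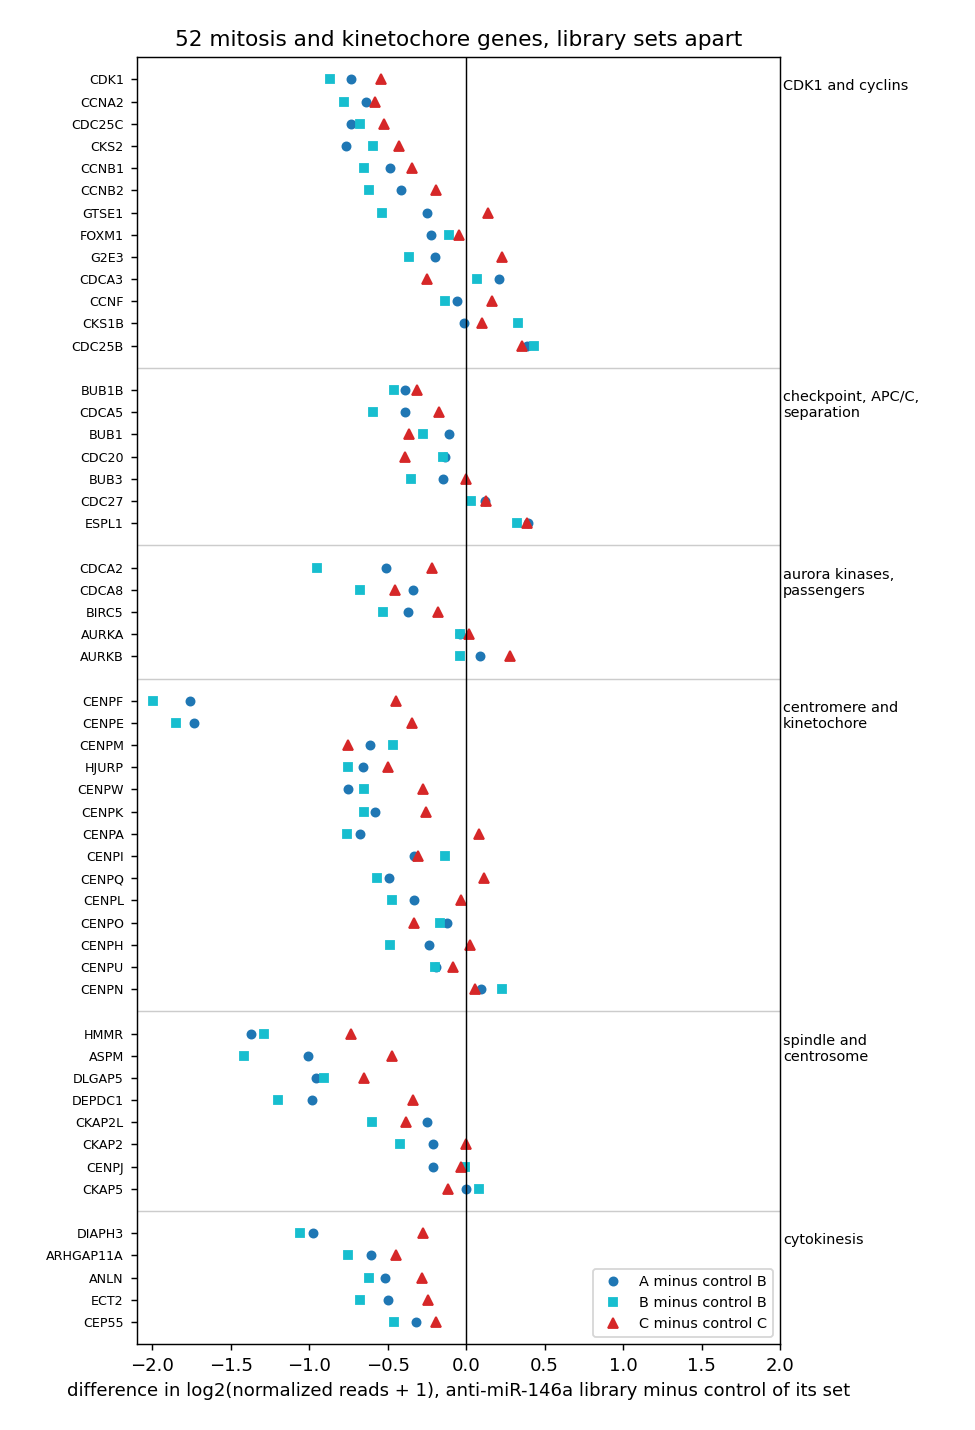
Difference in log2(normalized reads + 1) for each of the 52 genes, grouped by role: circles are anti-miR-146a A and squares anti-miR-146a B, each minus control B, and triangles anti-miR-146a C minus control C. Most points lie left of 0, with medians of −0.44 for A and B and −0.24 for C, and the triangles of CENPF and CENPE lie far to the right of their circles and squares.

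Kinetochore and centromere genes held the members with the largest drops with the C term, CENPF and CENPE, but not the largest median drop of a role. The kinetochore is the protein plate that ties each chromosome to spindle microtubules. Of 14 members 13 were lower in the comparison of all 5 libraries, 4 passed as lower with the C term and none as higher. The median difference was −0.53 for A and B against control B and −0.26 for C against C. The same medians were −0.68 and −0.36 for spindle and centrosome genes, and −0.59 and −0.27 for genes of the cleavage furrow and abscission.

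CENPF, a large coiled-coil protein of the outer kinetochore that accumulates in G2, had 2091 and 1435 normalized reads in the controls against 618, 525 and 1053 in the treated libraries. The groups did not overlap, and the drop was deep in A and B, at 27.3% of control B, and shallow in C, at 73.4% of control C. With the C term the log2 difference was −1.26 (SE 0.21, adjusted p 0.001445 in limma).

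CENPE, a kinesin motor of the kinetochore that carries chromosomes to the spindle equator, followed the same pattern with 677 and 452 normalized reads in the controls against 203, 187 and 356 in the treated libraries. The level in A and B was 28.8% of control B and in C 78.9% of control C, with no overlap between the groups. The log2 difference with the C term was −1.17 (SE 0.21, adjusted p 0.00328 in limma).

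HJURP, the chaperone that loads the centromeric histone CENPA, had 142 and 115 normalized reads in the controls against 89.7, 84.0 and 80.9 in the treated libraries, below both controls in every library (log2 difference with the C term −0.62, SE 0.15, adjusted p 0.0154 in limma). CENPW, a histone-fold protein of the inner kinetochore, had 187 and 93.3 in the controls against 110, 119 and 76.9 in the treated libraries. It was lower within each set, but A and B lay between the controls (−0.52, SE 0.16, adjusted p 0.036 in limma with the C term). That call was lost on leaving out control B, anti-miR-146a A or anti-miR-146a B.

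The other members of the inner kinetochore network did not pass in limma, and edgeR with the C term called 1 of them, CENPK, as lower (adjusted p 0.0406). CENPN, which binds the CENPA nucleosome, had 462 and 404 normalized reads in the controls against 494, 542 and 421 in the treated libraries, the only centromere member higher in both sets. CENPM had a log2 difference with the C term of −0.63 (SE 0.22, adjusted p 0.0702 in limma), CENPK one of −0.46 (SE 0.16, adjusted p 0.0616) and CENPA one of −0.37 (SE 0.24, adjusted p 0.307). CENPH, CENPI, CENPL, CENPO, CENPQ and CENPU had values from −0.27 to −0.14.

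All 8 spindle and centrosome genes were lower in the comparison of all 5 libraries, and 5 passed as lower with the C term. HMMR, a microtubule-binding protein of the spindle poles that is also known as a hyaluronan receptor, had 316 and 184 normalized reads in the controls against 122, 129 and 110 in the treated libraries. All 3 treated libraries lay close together and below both controls, at 39.6% of control B for A and B and 60.0% of control C for C. Its log2 difference with the C term was −1.07 (SE 0.15, adjusted p 5.628e-04 in limma), the smallest adjusted p among the 52.

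ASPM, which focuses microtubules at the spindle poles, had 484 and 480 normalized reads in the controls against 240, 181 and 346 in the treated libraries. The controls were nearly equal and all treated libraries lower (log2 difference with the C term −0.89, SE 0.16, adjusted p 0.00246 in limma). DLGAP5, also called HURP, which stabilises the microtubules that reach the kinetochores, had 391 and 236 in the controls against 201, 208 and 150 in the treated libraries, again without overlap (−0.81, SE 0.12, adjusted p 8.502e-04 in limma).

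DEPDC1 had 553 and 223 normalized reads in the controls against 279, 240 and 176 in the treated libraries, so that A and B lay above control C although well below control B (−0.77 with the C term, SE 0.15, adjusted p 0.00494 in limma). CKAP2L, a spindle protein of neural progenitors in mice, had 348 and 406 in the controls against 293, 230 and 311 in the treated libraries (−0.41, SE 0.12, adjusted p 0.0358 in limma), a call lost on leaving out control B or anti-miR-146a B.

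CKAP5, the microtubule polymerase also called chTOG, kept nearly the same level throughout, with 3761 in both controls against 3753, 3982 and 3472 in the treated libraries, and its sign turned with the libraries used. CKAP2, a microtubule stabiliser, had 641 and 561 in the controls against 553, 478 and 560 in the treated libraries, and CENPJ, a builder of centrioles, had a log2 difference with the C term of −0.08 (SE 0.11). None of these 3 passed.

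Of 5 genes of the cleavage furrow and of abscission, all were lower in both sets of libraries and 4 passed with the C term. ECT2, the exchange factor that switches on RhoA at the cell equator, had 1324 and 1188 normalized reads in the controls against 936, 827 and 1005 in the treated libraries, without overlap and with the controls close together (−0.44, SE 0.10, adjusted p 0.0102 in limma with the C term). ANLN, the anillin scaffold of the contractile ring, had 1122 and 796 in the controls against 784, 732 and 656 in the treated libraries, also below both controls (−0.44, SE 0.10, adjusted p 0.0080 in limma).

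DIAPH3, a formin that nucleates actin filaments, had 480 and 256 normalized reads in the controls against 244, 230 and 211 in the treated libraries (−0.70, SE 0.15, adjusted p 0.00652 in limma with the C term). ARHGAP11A, a GTPase-activating protein for RhoA, had 682 and 456 in the controls against 448, 404 and 335 in the treated libraries (−0.58, SE 0.10, adjusted p 0.00303 in limma). In each of them the treated libraries stayed below both controls, A and control C lying close together. ARHGAP11A shares 15.2% of its exon bases with an antisense gene and has a near-identical copy, ARHGAP11B, so its reads are uncertain. CEP55, which recruits the abscission machinery, did not pass (−0.30, SE 0.12, adjusted p 0.0924).

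The kinase CDK1, its cyclins and their activators split in direction. Of 13 members 4 passed as lower with the C term, 1 as higher and 8 did not pass. CDK1, the kinase whose activity starts mitosis, had 282 and 162 normalized reads in the controls against 170, 154 and 111 in the treated libraries. Treated libraries were lower within each set, at 57.4% of control B and 68.5% of control C, but A lay above control C (log2 difference with the C term −0.69, SE 0.13, adjusted p 0.00442 in limma).

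CCNA2, the cyclin A of S phase and G2, had 349 and 208 normalized reads in the controls against 224, 204 and 139 in the treated libraries (−0.65, SE 0.12, adjusted p 0.00335 in limma with the C term). CCNB1, the cyclin B that CDK1 needs to enter mitosis, had 860 and 447 in the controls against 615, 547 and 351 in the treated libraries (−0.47, SE 0.10, adjusted p 0.00786 in limma). For both, control C fell among or below the treated libraries A and B, and each set on its own showed the lower values with anti-miR-146a. CCNB2, the other B-type cyclin of the list, had −0.38 (SE 0.13), which did not pass in limma (adjusted p 0.06955) and did in edgeR with the C term (adjusted p 0.04605).

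CKS2, a small CDK-binding protein, had 1569 and 1873 normalized reads in the controls against 923, 1038 and 1394 in the treated libraries, and here the C libraries were the higher ones in each group. Every treated library lay below both controls (−0.57, SE 0.09, adjusted p 0.001363 in limma with the C term). Its close relative CKS1B did not pass, with a difference of 0.13 (SE 0.14).

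CDC25B, a phosphatase that removes the inhibitory phosphates of CDK1, went the other way, with 1152 and 866 normalized reads in the controls against 1510, 1556 and 1109 in the treated libraries. It stood at 133% of control B in A and B and 128% of control C in C (0.39, SE 0.08, adjusted p 0.0074 in limma with the C term). CDC25C, the related phosphatase, had a difference of −0.63 (SE 0.21), which did not pass in limma (adjusted p 0.05995) and did in edgeR with the C term (adjusted p 0.04502).

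FOXM1, the transcription factor that activates many G2 and mitosis genes and that is named here after its values were seen, had a log2 difference with the C term of −0.12 (SE 0.09, adjusted p 0.429 in limma) and was at 89.1% of control B in A and B and 96.8% of control C in C. It shares 15.9% of its exon bases with ITFG2 on the opposite strand. CCNF, CDCA3, G2E3 and GTSE1 did not pass either, with differences from −0.16 to 0.02.

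Genes of the spindle checkpoint, the anaphase promoting complex and sister chromatid separation held no member that passed as lower in limma, and 1, BUB1B, that did in edgeR with the C term (adjusted p 0.0404). ESPL1, the separase that cuts cohesin to release sister chromatids, passed as higher with the C term, with 198 and 144 normalized reads in the controls against 261, 249 and 188 in the treated libraries (0.37, SE 0.12, adjusted p 0.0487 in limma). It passed in only 2 of 11 alternative fits with that term. CDC27, a core subunit of the anaphase promoting complex, had 2677 and 2604 in the controls against 2913, 2731 and 2848 in the treated libraries, above both controls in every library by small amounts (0.10, SE 0.08).

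BUB3, which holds the checkpoint kinases at kinetochores, had 2187 and 2176 normalized reads in the controls against 1972, 1712 and 2177 in the treated libraries, lower in A and B and level in C. BUB1B had a log2 difference with the C term of −0.38 (SE 0.12, adjusted p 0.0539 in limma), CDCA5, the cohesin protector sororin, −0.35 (SE 0.14), BUB1 −0.27 (SE 0.12) and CDC20, the activator of the anaphase promoting complex, −0.25 (SE 0.11). None of these 4 passed in limma.

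None of the 5 aurora kinase and chromosomal passenger genes passed in limma, while edgeR with the C term called BIRC5, CDCA2 and CDCA8 as lower (adjusted p 0.0359, 0.0426 and 0.0435). CDCA8, the borealin subunit of the passenger complex, had 137 and 122 normalized reads in the controls against 109, 85.8 and 89.0 in the treated libraries, below both controls in every library, with an unadjusted p of 0.0471 in limma with the antagomir alone and an adjusted p of 0.0506 with the C term. BIRC5, the survivin subunit, had 571 and 296 in the controls against 442, 394 and 261 in the treated libraries (−0.33, SE 0.11, adjusted p 0.0535 in limma with the C term). AURKA, the kinase of the spindle poles, had 477 and 419 in the controls against 464, 465 and 425 in the treated libraries, within the spread of the controls in every library. AURKB, the kinase of the passenger complex, had a difference of 0.13 (SE 0.15), and CDCA2, also called Repo-Man, which targets a phosphatase to anaphase chromosomes, one of −0.51 (SE 0.17, adjusted p 0.0535).

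**Figure D2:**
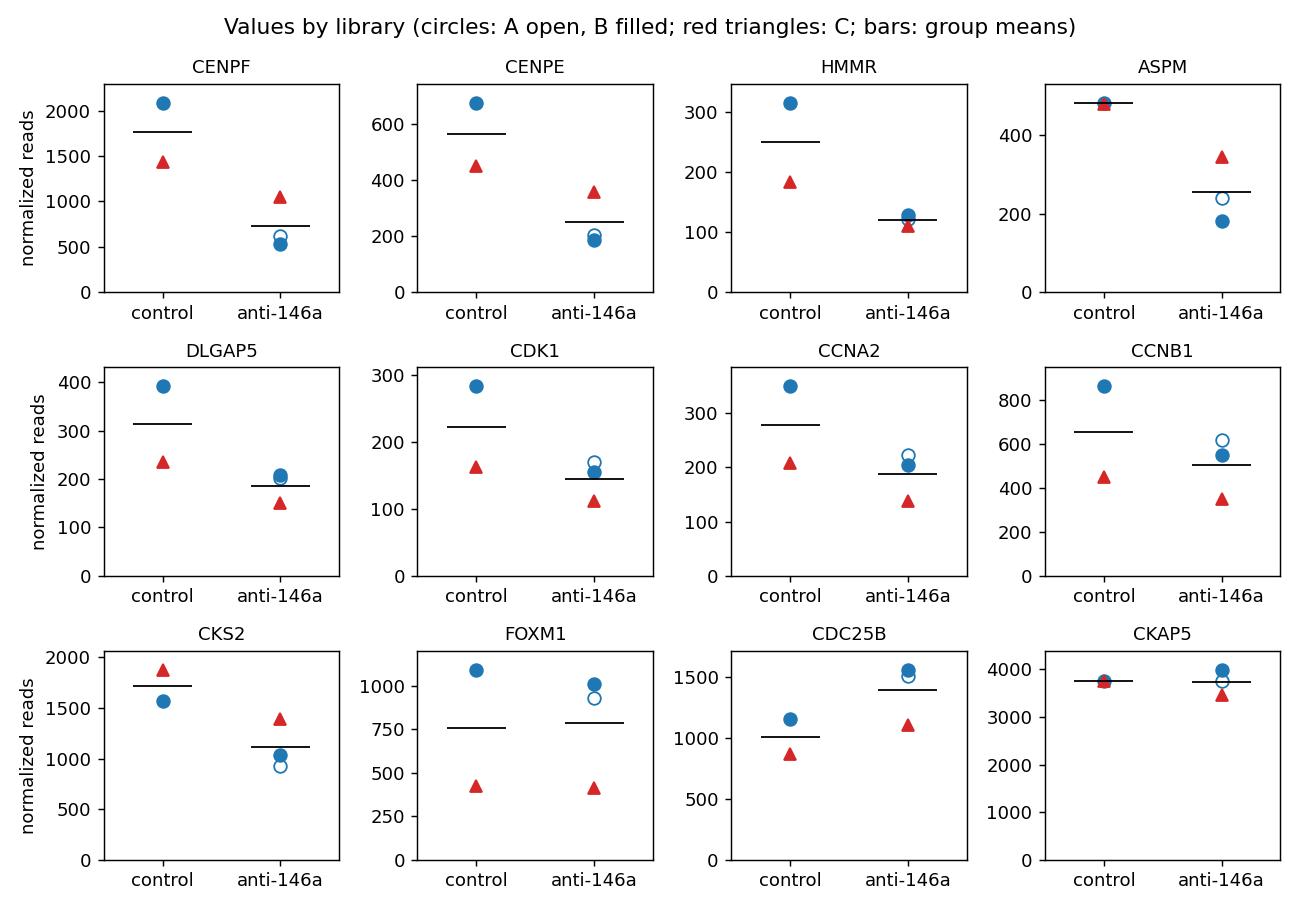
Normalized reads by library for 12 members (linear axes from 0); open circles are library A, filled circles B and triangles C, and each bar is the mean of the 2 control or 3 anti-miR-146a libraries. HMMR runs from 110 to 129 with anti-miR-146a against 184 and 316 in controls, CDC25B is higher in each set, CKAP5 is level, and FOXM1 separates by letter and not by antagomir.

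The size of the drop differed between the sets. Of the 52 members 42 had a smaller drop, or a larger rise, in C than in A and B, among them all 17 that passed as lower with the C term. That fit draws more on the A and B set than on the C libraries, so the 17 are not separate evidence. The share of all genes with a smaller drop in C was not counted. The median log2 difference in C minus that in A and B was 0.25 over members and 0.008 over all genes tested. A test of the difference itself, the interaction of antagomir and set in limma, passed for 5 members, where 2.39% of all genes passed. CENPE had a difference between the sets of 1.45 (SE 0.21, adjusted p 1.953e-09) and CENPF of 1.43 (SE 0.16, adjusted p 1.239e-15), and DEPDC1, DIAPH3 and ASPM had 0.75, 0.74 and 0.74. The spread in that model comes only from anti-miR-146a A against B, with 1 residual degree of freedom, so the lone libraries are assumed to vary in the same way.

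In the model with both terms, the C term was negative for most members, which is given as a description. Its median log2 value was −0.44, with 42 members lower and 10 higher, or 80.8% lower, where 48.1% of all genes tested were lower and the median was 0.02. By library, 35 members were lower in control C than in control B and lower in treated C than in treated A and B, among them FOXM1, with a C term of −1.29, and CENPM, with −1.41. CKS2 and CKAP2L were higher in C in both antagomir groups. For 11 members, CENPF, CENPE and ASPM among them, control C lay below control B while treated C lay above treated A and B. The C terms of CENPF and CENPE, 0.27 and 0.25, thus average opposite directions. In ASPM and BUB3 the controls were nearly equal (484 and 480, and 2187 and 2176). The C term of ASPM, 0.41, therefore comes mainly from its treated libraries. By role the medians ran from −0.59 for CDK1 and cyclins to −0.14 for the aurora kinase group. What set the C libraries apart was not tested.

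**Figure D3:**
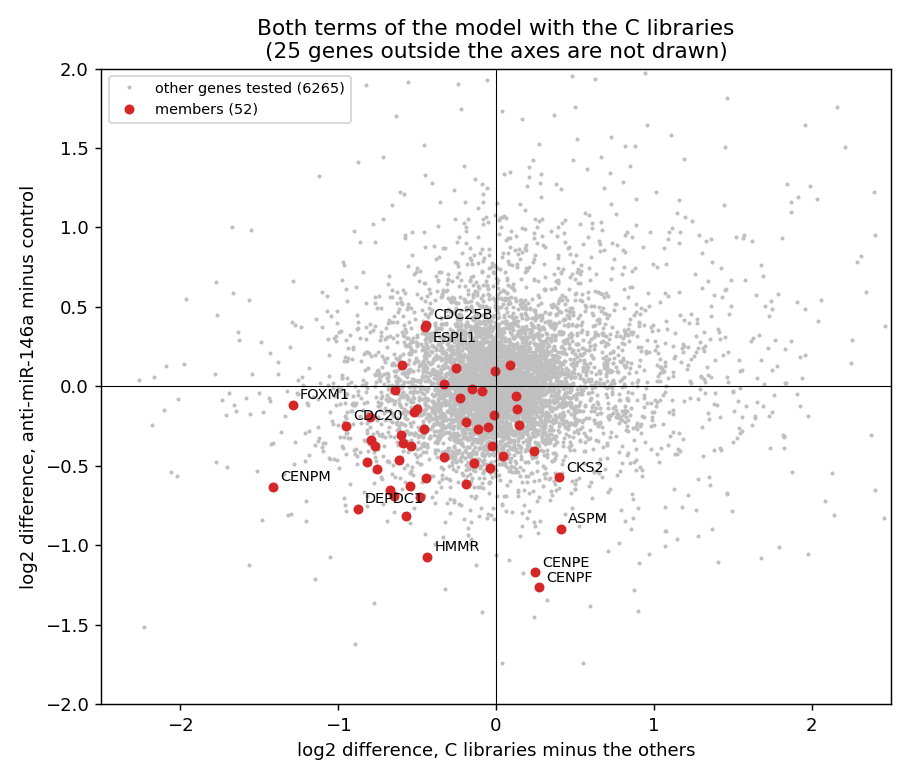
Both terms of the limma model for each gene: log2 difference of the C libraries from the others (horizontal) and of anti-miR-146a from control (vertical), with 6265 other genes in grey, the 52 members in red and 25 genes outside the axes not drawn. Most members lie in the lower left, with medians of −0.44 across and −0.34 down, while CENPF, CENPE, ASPM and CKS2 lie in the lower right and CDC25B and ESPL1 above 0.

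Many of the promoters of these genes, but not all, hold matches to the elements by which G2 and mitosis genes are known to be read. Promoters are printed here for 7 members named above. RefSeq promoters (GRCh38.p14, 250 bases before to 50 after the start nearest the deposited gene) were matched for 43 members. A CHR was searched as the letters TTTGAA and also as the variant TTCGAA. The box named for its letters was searched as CCAAT, and an E2F site as TTTGGCGC, TTTCCCGC, TTTGCCGC or TTTCGCGC, each on both strands. The windows below run from 120 bases before to 30 bases from the start in the direction of the gene, with CHR and CCAAT matches in capitals as they read on the gene's strand: HMMR and DLGAP5, with both kinds; ANLN, with a pair of CHR matches side by side; CKS2 and ESPL1, which moved in opposite directions with the C term; CENPF, with CCAAT matches and a CHR just past the window; and CENPE, with neither.
HMMR (chr5:163460512-163460661, plus strand): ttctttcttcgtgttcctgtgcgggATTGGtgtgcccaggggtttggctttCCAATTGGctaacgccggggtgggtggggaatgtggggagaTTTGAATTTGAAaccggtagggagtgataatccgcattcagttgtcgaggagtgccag
DLGAP5 (chr14:55191556-55191705, minus strand): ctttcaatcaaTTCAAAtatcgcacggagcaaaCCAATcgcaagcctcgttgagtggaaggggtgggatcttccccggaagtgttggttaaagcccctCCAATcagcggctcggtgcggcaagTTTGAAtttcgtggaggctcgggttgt
ANLN (chr7:36389742-36389891, plus strand): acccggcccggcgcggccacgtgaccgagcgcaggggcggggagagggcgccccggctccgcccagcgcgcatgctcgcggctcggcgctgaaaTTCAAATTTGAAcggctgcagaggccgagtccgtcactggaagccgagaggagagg
CKS2 (chr9:89311075-89311224, plus strand): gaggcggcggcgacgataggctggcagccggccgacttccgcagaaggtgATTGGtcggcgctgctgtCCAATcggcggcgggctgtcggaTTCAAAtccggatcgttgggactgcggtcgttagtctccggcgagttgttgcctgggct
ESPL1 (chr12:53268179-53268328, plus strand): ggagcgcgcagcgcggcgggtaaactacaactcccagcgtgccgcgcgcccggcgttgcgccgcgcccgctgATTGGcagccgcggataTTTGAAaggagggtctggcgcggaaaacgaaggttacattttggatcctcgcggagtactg
CENPF (chr1:214603075-214603224, plus strand): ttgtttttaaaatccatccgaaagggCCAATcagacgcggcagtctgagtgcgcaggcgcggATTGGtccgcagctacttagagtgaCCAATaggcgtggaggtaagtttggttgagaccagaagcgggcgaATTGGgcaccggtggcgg
CENPE (chr4:103198314-103198463, minus strand): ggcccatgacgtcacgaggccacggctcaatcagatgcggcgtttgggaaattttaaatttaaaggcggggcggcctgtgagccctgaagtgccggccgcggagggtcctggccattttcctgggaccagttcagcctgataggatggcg

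A CHR match was present in 29 of the 43 members, or 67.4%, against 10.5% of the 3828 tested protein-coding genes that are not members and 16.4% of all 35116 promoters. A CCAAT match was present in 74.4% of members, 36.1% of those genes and 34.6% of all promoters, and both together in 55.8%, 4.26% and 6.38%. E2F matches were in 9.3% of members, 5.51% of those genes and 3.31% of all promoters, while among 27 tested DNA replication genes 48.1% had an E2F match and 7.41% a CHR. Among 44 tested genes of a list of other mitosis genes, 20.5% had a CHR match, 34.1% a CCAAT match and 13.6% both. The high shares of the members were thus not shared by that list. By role, CHR matches were in 6 of 7 spindle and centrosome genes and 6 of 11 centromere and kinetochore genes. The antagomir difference was similar with and without a match. The 29 with a CHR match had a median of −0.38 with the C term, with 12 passing as lower and 1 as higher. The 14 without one had a median of −0.36, with 5 lower and 1 higher. Only TTTGAA and TTCGAA were searched, so these 14 may include genes with a CHR of another form. A match is a description of letters and not of binding.

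Matches to the miR-146a-5p seed were counted in the longest annotated 3′ UTR (GENCODE 29, GRCh38), as 8mers AGTTCTCA, 7mers AGTTCTC and 7mers GTTCTCA. Of 49 members with an annotated 3′ UTR, 8 held a match, and BUB3 alone held an 8mer. The 2 windows with a match to the whole seed are printed here, with the match in capitals, for BUB3 (chr10:123170267-123170296, plus strand) and CDCA5 (chr11:65077530-65077558, minus strand).
BUB3: ttacatgatgtAGTTCTCAgatatatacgg
CDCA5: catcattgcaaAGTTCTCtgttcctgagg
The other matches were to the shorter 7mer, in CCNA2, CDCA8, CDK1, CENPO, CKAP5 and DEPDC1. Of these 8 genes CCNA2, CDK1 and DEPDC1 passed as lower with the C term and none passed as higher. Of all members 32.7% passed as lower in that model, and of all genes tested 6.79%. Seed matches were not counted in other genes, so the number of members with a match has no background. BUB3 had a log2 difference of −0.14 (SE 0.09).

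The members had a median transcript GC content of 43.1% against 50.2% over all genes tested, and near-equal median lengths of 971 and 984 bases, with values for 49 members. Each gene's value is the median over all its annotated transcripts, short ones included, and not the length of its main mRNA. CENPF, for one, had a median of 711 bases against 11690 exon bases. The adjustment for length used these medians. Across genes, which are not independent replicates, Spearman's rho of the C-term difference with GC content was 0.47 over the 49 members and 0.26 over 5723 genes tested. When each library was adjusted for GC content and transcript length, a step chosen after seeing the data, 26 of these 49 members passed in limma with the C term, 1 of them as higher, where 19.2% of all genes did. Exon bases shared with genes on the opposite strand reach 27.0% for CENPO with ADCY3, 12.8% for CENPN with CMC2, 9.08% for CCNA2 with EXOSC9 and 9.08% for CKAP2L with NT5DC4, and BUB1B shares 10.2% with the readthrough BUB1B-PAK6 on its own strand. The sources used here do not say whether the counting used strand, so reads of such pairs cannot be told apart.

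Further genes of cell division were taken from lists of other mitosis genes and of DNA replication genes. Of 78 further mitosis genes 47 had a row and 46 were tested, and 8 passed as lower and 2 as higher with the C term, or 17.4% lower, with a median of −0.10. CENPC, which anchors the inner kinetochore to centromeric chromatin, had 460 and 416 normalized reads in the controls against 268, 249 and 358 in the treated libraries (−0.57, SE 0.13, adjusted p 0.0113 in limma with the C term). CENPP, an inner kinetochore subunit, was higher, with 45.8 and 51.3 in the controls against 89.7, 96.8 and 70.8 in the treated libraries (0.77, SE 0.19, adjusted p 0.0141). CDC25A, the phosphatase that also opens S phase, and HAUS3, an augmin subunit that branches spindle microtubules, passed as lower at −0.40 and −0.39.

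Of 48 DNA replication genes 37 had a row and 35 were tested, and 9 passed as lower and 1 as higher with the C term, or 25.7% lower, with a median of −0.19. ATAD2, a bromodomain ATPase of replicating chromatin, had 1164 and 879 normalized reads in the controls against 609, 555 and 639 in the treated libraries (−0.77, SE 0.11, adjusted p 8.502e-04 in limma). BRCA1 and ESCO2, the acetyltransferase that sets sister chromatid cohesion, passed as lower at −0.64 and −0.81. EZH2, the methyltransferase of Polycomb complex PRC2, passed as higher at 0.55 (SE 0.13, adjusted p 0.0140 in limma with the C term).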

How the data were processed

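Libraries were prepared from rRNA-depleted total RNA (KAPA RNA HyperPrep with RiboErase, per the labels' protocols). The submitters' processing notes name Trimmomatic 0.35, STAR 2.5.1b, DESeq2 1.22.2 and GRCh38. The counter, strand setting and annotation were not given in these sources. Each row of the deposited table gives a signal per library, the read count divided by a size factor. Its comparison columns hold fold changes as linear ratios, deposited by the authors. The deposited p-value columns, raw and adjusted, are also theirs. All values of each deposited signal column were whole multiples of its smallest step within 1e-06, so reads were recovered (100% of values). The size factors were 1.05 (control B), 1.07 (control C), 1.06 (anti-miR-146a A), 1.10 (B) and 0.989 (C). Depth sets the precision of low genes, and the sums given are part of each library.

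The columns name an antagomir and a letter, which gives each column its group but not its GEO replicate number. Every pair of libraries differed by more than sampling noise (chi-square per gene of at least 4.91). Because the deposited values are normalized, limma 3.58.1 (R 4.3.3) with trend was fitted to log2(value + 1) over the 6317 genes that reached 10 normalized reads in 2 or more libraries, with Benjamini-Hochberg adjustment and a threshold of 0.05. Fold changes on that scale understate the change of low genes. Alternatives on the recovered reads were edgeR 4.0.16, DESeq2 1.42.0 and limma voom. Other alternatives changed the scaling, filter, pseudocount, threshold and libraries, or added the C term or the letter. The correction for GC content and length (a loess curve of span 0.5), the C-term fit under other settings and the interaction of antagomir and C were added after the data were seen. Fits were tested on simulated data.

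The members and lists were chosen with earlier results of these data known. Members are given with every library where they had an unadjusted p under 0.05 with the antagomir alone, passed in limma with the C term or in DESeq2, or were among the 2 highest in reads in their role. From other lists up to 4 genes with the smallest unadjusted p are given. All 17390 rows whose versioned gene ID is in GENCODE 29 had the same position there.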

Additional observations from a re-analysis of the deposited data

Results flagged for a closer look

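For 5 members the antagomir difference itself differed between the C libraries and the A and B libraries (limma, interaction of antagomir and set, adjusted over all genes tested). The log2 difference in C minus that in A and B was 1.449 for CENPE, 1.428 for CENPF, 0.751 for DEPDC1, 0.7445 for DIAPH3 and 0.7431 for ASPM. In each the drop with anti-miR-146a was smaller in C, where the levels were 78.9%, 73.4%, 78.9%, 82.7% and 72.1% of control C, than in A and B, where they were 28.8%, 27.3%, 47.0%, 49.3% and 43.5% of control B. The replicate spread behind these tests is that of anti-miR-146a A against B alone. The cause of the difference was not tested.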

How the results depend on the processing

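With the antagomir alone, the count of members that passed (0) rose to 1 in DESeq2, 19 with the C term in limma (15.4% of all genes passed), 25 with it in edgeR (15.1%), and 29 when both C libraries were dropped (24.6%), leaving a single control. With the letter as a replicate block it was 18 (10.1%), and 17 with the block and the GC and length correction (9.52%). The labels do not say that letters mark shared cultures, and only B and C occur in both groups. Deviations from the group means correlated across genes at 0.505 for B and 0.661 for C. Control B correlated with anti-miR-146a A at 0.532, so the B libraries did not correlate best with each other. The deviations of the 2 controls are exact opposites, so these correlations are tied to each other. They cannot show which libraries belong together. Leaving out any 1 library kept the count at 0. The member median (−0.25) ran from −0.5528 without control C to −0.0078 without control B. With the C term the count of 19 ran from 5 without control B to 29 without anti-miR-146a C, and was 0 without a filter on low values, where 0 of 15396 genes passed. Signs turned for 7 named members, none of them called with the antagomir alone. AURKA (0.01) became −0.002723 in edgeR, −0.008325 in DESeq2, −0.003085 with TMM scaling, −0.01352 and −0.03255 with the C term in limma and edgeR, −0.009196 with the letter block, −0.03891 without both C libraries, and ran from −0.08175 to 0.106 when single libraries were left out. CKAP5 (−0.01) became 0.03989 without both C libraries, 0.03991 without anti-miR-146a C (−0.05907 without anti-miR-146a B), 0.02451 with the GC and length correction and 0.00454 with that and the block. Without single libraries, from control C left out to control B left out, BIRC5 ran from −0.6758 to 0.2705, CCNB1 from −0.8083 to 0.1346, CENPW from −0.8932 to 0.103 and DEPDC1 from −1.275 to 0.0303. BIRC5 also became 0.02248 without anti-miR-146a C, and BUB3 was 0.0008163 between the C libraries alone. The cause of these changes was not tested. Of the other values for named members, 422 kept their sign and side of the threshold and 96 passed where the antagomir alone did not.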
